A study of Mus musculus with 20 samples.

Results

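The neurotrophic and nerve-attracting factors of skeletal muscle Ncam1, Gdnf, Ntf3, Ntf5, Bdnf, Cntfr and Fgfbp1, were followed in the gastrocnemius (GAS), the large calf muscle. They were taken by gene name, and 7 of 7 were found among the 32285 genes of the expression table. RNA was sequenced from 4 groups of 5 libraries each. WT mice were C57BL/6, and Opg-/- mice carried the Tnfrsf11btm1Smoc allele of the gene for osteoprotegerin, a secreted decoy receptor for RANKL. All mice were males of 12 weeks. In each mouse the right sciatic nerve was exposed and cut over 10 mm (den) and the left nerve was only exposed (sham), and the GAS was taken at day 7. The sham limb is therefore the opposite limb of an injured animal, and every group shares the surgery. Whole muscle was used, so fewer cells of a type and less RNA per cell cannot be told apart.

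A muscle fibre and its motor neuron exchange signals in both directions. Muscle secretes survival factors for motor and sensory axons, among them GDNF and the neurotrophins NT-3, NT-4/5 and BDNF, which act on receptors carried by the nerve. It also displays the adhesion molecule NCAM, which in innervated muscle is found mainly at the synapse and after denervation spreads along the fibre. The CNTF receptor and the FGF carrier FGFBP1 belong to the same exchange, the first as a receptor on the fibre for a factor stored in Schwann cells, the second as a secreted protein that frees FGFs from the matrix. In the mouse, FGFBP1 is known as a muscle-derived protein that helps maintain the neuromuscular junction.

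Before any comparison, the libraries were checked. Between 15186247 and 20102295 reads per library were assigned to genes, and 16270 to 17385 genes were above 0. The libraries WT sham 1 and 2 were closer to each other than counting noise alone would leave them. Chi-squared over degrees of freedom was 0.322 for this pair and 6.74 to 25.5 for the remaining 39 within-group pairs, so their mean was counted as 1 library and WT sham has n = 4. Chrna1 encodes a subunit of the muscle acetylcholine receptor that rises when the nerve is lost. It was 275 to 436 in the sham libraries and 8219 to 13683 in the den libraries. Ckm, Acta1 and the other skeletal muscle fibre markers, 10 of 10, were measured in every group. By the calls defined below, 8 of these fibre markers were lower in den in WT and 10 in Opg-/- (medians -0.88 and -1.16). Among all genes tested, 25.7% were called lower in WT and 26.4% in Opg-/-. Tnfrsf11b, the targeted gene, was 1.18 to 6.38 in WT and 1.89 to 11.9 in Opg-/- libraries. It was not lower in the libraries labelled Opg-/-: in sham the 2 genotypes did not overlap, with Opg-/- at 6.06 or above and WT at 5.51 or below (log2 difference 1.48, adjusted p = 0.19 by limma). Reads from outside the deleted part of the gene cannot be set apart in these values, so this gene does not check the genotype, and WT and Opg-/- below are the genotypes as labelled.

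Values are normalized read counts, that is, estimated reads per gene divided by 1 factor per library, so that a value near 10 stands for about 10 reads. Differences are log2(value + 1) of the first group minus the second, from 1 limma fit over all groups, with the standard error (SE) and a p-value adjusted over all 17948 genes tested. A difference was called where that adjusted p was under 0.05. All 7 members passed the filter on low values.

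The genes lie on 7 chromosomes of mm10 in the GENCODE annotation, and all are protein-coding. Ncam1 (ENSMUSG00000039542) covers chr9:49502136-49798925 on the minus strand, and Gdnf (ENSMUSG00000022144) covers chr15:7810846-7837575 on the plus strand, 46.4 Mb from Tnfrsf11b on the same chromosome. Ntf3 (ENSMUSG00000049107) lies at chr6:126101412-126166910 on the minus strand, Ntf5 (ENSMUSG00000074121) at chr7:45413695-45417179 on the plus strand and Bdnf (ENSMUSG00000048482) at chr2:109674700-109727007 on the plus strand. Cntfr (ENSMUSG00000028444) lies at chr4:41657498-41697089 and Fgfbp1 (ENSMUSG00000048373) at chr5:43978858-43981779, both on the minus strand. The libraries did not keep strand, and exons of Ncam1 and Bdnf overlap antisense transcripts. These were at a mean of 0.149 (Gm11149, over Ncam1) and 0 (Gm45346, over Bdnf) in the table.

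Promoter windows are shown for Gdnf and Fgfbp1, because these genes moved far in opposite directions after denervation. RefSeq sequence of GRCm38.p6, from 250 bases before to 50 bases after a start site, was found for 5 of the 7 members, with 2 windows for Gdnf, 2 for Ntf3, 7 for Bdnf, 6 for Cntfr and 1 for Fgfbp1. Capitals mark each CANNTG, the E-box bound by basic helix-loop-helix factors such as MyoD and myogenin, and each TATAAA, the TATA box. Both strands were searched and the motifs did not overlap. The first Gdnf window lies before the GENCODE gene and the second inside it. All windows below read 5′ to 3′ along the gene.
Gdnf, first start site, chr15:7809798-7810097, plus strand: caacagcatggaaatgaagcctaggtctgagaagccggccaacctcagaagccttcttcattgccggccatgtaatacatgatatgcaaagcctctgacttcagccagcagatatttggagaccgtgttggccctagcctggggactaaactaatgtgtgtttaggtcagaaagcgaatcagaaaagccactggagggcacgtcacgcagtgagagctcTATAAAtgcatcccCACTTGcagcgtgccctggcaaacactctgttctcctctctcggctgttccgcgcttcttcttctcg
Gdnf, second start site, chr15:7813477-7813776, plus strand: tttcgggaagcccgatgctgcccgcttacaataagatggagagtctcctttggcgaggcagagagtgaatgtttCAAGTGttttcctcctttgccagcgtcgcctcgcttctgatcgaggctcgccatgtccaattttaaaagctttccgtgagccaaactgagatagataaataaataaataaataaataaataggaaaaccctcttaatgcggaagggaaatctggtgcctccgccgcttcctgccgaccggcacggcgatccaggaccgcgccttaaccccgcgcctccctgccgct
Fgfbp1, chr5:43981750-43982049, minus strand: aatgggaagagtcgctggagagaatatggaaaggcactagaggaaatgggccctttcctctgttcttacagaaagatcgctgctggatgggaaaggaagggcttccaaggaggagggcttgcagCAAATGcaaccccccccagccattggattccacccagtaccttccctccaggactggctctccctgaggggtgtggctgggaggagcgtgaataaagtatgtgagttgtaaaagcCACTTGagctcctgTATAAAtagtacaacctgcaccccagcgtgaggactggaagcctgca

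The upstream Gdnf window held 1 TATAAA beginning 31 bases before the start and 1 CANNTG of the letters CACTTG beginning 17 bases before it. The downstream Gdnf window held 1 E-box, with the letters CAAGTG, beginning 176 bases before the start, and no TATAAA. The Fgfbp1 window held a CANNTG of the letters CACTTG 11 bases before the start, another of the letters CAAATG 126 bases before it, and a TATAAA just after this RefSeq start. The GENCODE gene begins further along, at 43981779, so the TATAAA lies before that start. No window of the other members held a TATA box. An E-box was found in 72.3% of 32851 promoter windows of the same length and a TATA box in 13.6%. The form CAGCTG was in 16.3% of all windows and in 1 Bdnf and 1 Cntfr window. CCGGAA, the N-box described at genes of the neuromuscular synapse, was in 14.9% of all windows and in no window of the 5 members. A match is a string of letters and not a measured binding site, and the values per gene do not separate one start site from another.

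The first question was how each factor responded to loss of the nerve. In WT, 6 of the 7 members differed between den and sham. Ncam1 and Gdnf rose, and Ntf5, Fgfbp1, Ntf3 and Cntfr fell. Among all genes tested, 26.9% were called higher and 25.7% lower in this comparison, so a call by itself says little here and the sizes say more. In Opg-/-, 5 of 7 members were called, Ncam1 and Gdnf higher and Ntf5, Fgfbp1 and Cntfr lower, against 28.6% of all genes called higher and 26.4% called lower. These shares depend on the scaling: of the called genes 51.2% were higher in WT and 52% in Opg-/-, and with libraries scaled to equal totals 72.1% and 78.8%, where the median of all genes moved up by 0.27 and 0.40. The median over the members was -0.46 in WT and -0.55 in Opg-/-, beside -0.00 and 0.02 over all genes.

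**Figure D1:**
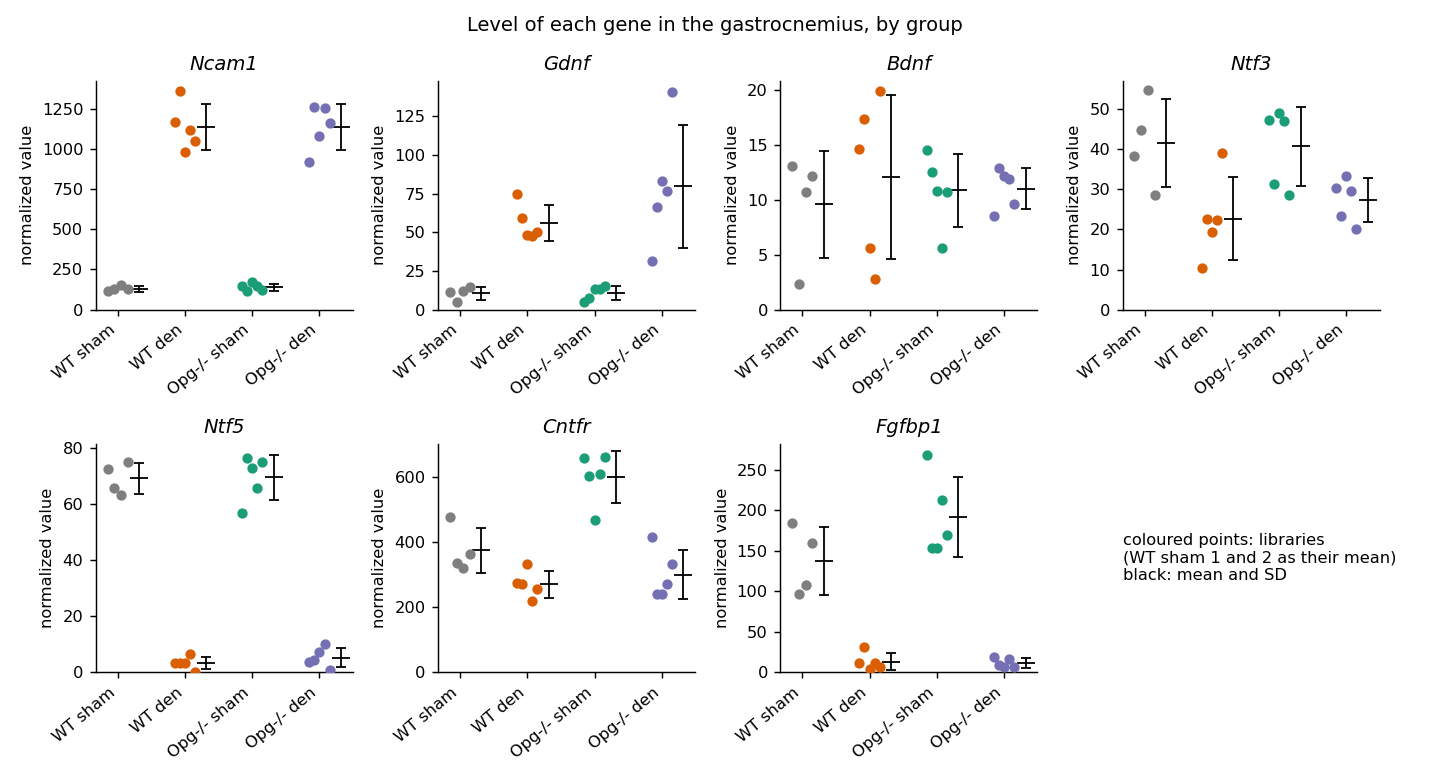
Normalized value of each gene (vertical axis, from 0) in the 4 groups, with 1 coloured point per library, WT sham 1 and 2 shown as their mean, and the group mean ± SD in black. Ncam1 and Gdnf were higher in every den library than in any sham library, Ntf5 and Fgfbp1 were lower in every den library, and the groups overlapped for Bdnf and Ntf3.

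Ncam1, which encodes the neural cell adhesion molecule NCAM, rose the most steadily. In WT sham it was 113 in the mean of libraries 1 and 2 and 126, 152 and 126 in libraries 3 to 5, and in WT den it was 1167, 1361, 984, 1118 and 1050. In Opg-/- sham it was 144, 114, 170, 149 and 124, and in Opg-/- den 921, 1261, 1082, 1256 and 1163. The lowest den library was more than 5 times the highest sham library in either genotype. The group means were 129 ± 16.6 (SD, n = 4) in WT sham and 1136 ± 143 (n = 5) in WT den, an 8.78-fold difference, with a log2 difference of 3.12 (SE 0.115, adjusted p = 5.22e-19, limma). In Opg-/- they were 140 ± 21.8 and 1137 ± 141 (SD, n = 5 each), an 8.10-fold difference, with a log2 difference of 3.01 (SE 0.108, adjusted p = 2.23e-19, limma). Of 17948 genes, 176 rose at least as far as Ncam1 in WT and 245 in Opg-/-, itself included.

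Gdnf encodes glial cell line-derived neurotrophic factor, a survival factor for motor neurons. It was 11.3 in the mean of WT sham 1 and 2 and 4.71, 11.8 and 14.3 in the other WT sham libraries, against 74.7, 58.9, 48.1, 47.6 and 50.2 in WT den. In Opg-/- sham it was 4.85, 7.54, 13.2, 13.4 and 15.5, and in Opg-/- den 31.2, 66.4, 83.4, 76.3 and 141. The sham and den libraries did not overlap in either genotype, while the den libraries of Opg-/- spread wider (79.7 ± 39.7, SD, n = 5) than those of WT (55.9 ± 11.5, n = 5). The rise was 5.30-fold on the means in WT, with a log2 difference of 2.37 (SE 0.357, adjusted p = 2.11e-06, limma), and 7.31-fold in Opg-/-, with a log2 difference of 2.71 (SE 0.337, adjusted p = 7.64e-08). Its sham values rest on 4 to 13 reads per library in each genotype, which limits the precision of the fold but not its direction.

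The 3 neurotrophins of the set did not move together. Ntf5, the gene of neurotrophin-4/5, a ligand of the TrkB receptor that in rat muscle is known to depend on nerve activity, fell the furthest of the 3. WT sham libraries were at 72.6 (the mean of 1 and 2), 65.9, 63.4 and 75.0, and WT den libraries at 3.43, 3.47, 3.21, 6.53 and 0. Opg-/- sham libraries were at 57.0, 76.6, 73.0, 66.0 and 75.2, and Opg-/- den libraries at 3.78, 4.31, 7.29, 10.2 and 0.875. Every sham library was thus above 50 and every den library at or near 10 or less. The library at 0, WT den 5, allows a value of up to 2.39, the worth of 3 reads. On the means, WT sham was 20.8-fold above WT den and Opg-/- sham 13.2-fold above Opg-/- den, with log2 differences of -4.27 (SE 0.451, adjusted p = 5.33e-09) and -3.71 (SE 0.426, adjusted p = 2.06e-08) by limma. Only 48 of 17948 genes fell at least as far in WT and 97 in Opg-/-, Ntf5 included. The den libraries held 0 to 12 reads of this gene, and the added pseudocount of 1 makes the log2 differences smaller than the ratios.

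Ntf3 encodes neurotrophin-3, the ligand of TrkC and a factor on which sensory neurons of muscle spindles depend. WT sham libraries were at 38.4 (the mean of 1 and 2), 44.7, 54.8 and 28.7, and WT den libraries at 10.3, 22.5, 19.2, 22.4 and 39.1. In Opg-/- the sham libraries were at 47.3, 31.4, 49.1, 47.0 and 28.6 and the den libraries at 30.3, 23.3, 33.2, 29.7 and 20.1. The groups overlapped in both genotypes, in WT through den 5, which was above 2 of the 4 sham values. The difference was called in WT (-0.92, SE 0.287, adjusted p = 0.00788, limma) and was not called in Opg-/- (-0.55, SE 0.271, adjusted p = 0.0906). The difference between these effects was itself not called (0.38, 95% interval -0.43 to 1.19, adjusted p = 0.85), so the genotypes are not shown to differ. The WT call was lost when libraries were scaled to equal totals (-0.63, adjusted p = 0.0684).

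Bdnf, the gene of brain-derived neurotrophic factor, the other TrkB ligand, was measured from 2 to 25 reads per library. WT sham libraries were at 13.1 (the mean of 1 and 2), 2.35, 10.7 and 12.1, and WT den libraries at 14.6, 17.3, 5.61, 2.80 and 19.9. Opg-/- sham libraries were at 14.5, 12.6, 10.8, 5.59 and 10.7, and Opg-/- den libraries at 8.51, 12.9, 12.1, 11.9 and 9.63. All groups overlapped. The den minus sham difference was 0.23 in WT (95% interval -0.72 to 1.18, adjusted p = 0.71, limma) and 0.06 in Opg-/- (-0.84 to 0.96, adjusted p = 0.92). At this depth the intervals leave room for a change of up to about 2-fold in either direction.

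Cntfr encodes the alpha subunit of the receptor for ciliary neurotrophic factor, which signals with LIFR and gp130. It was 475 in the mean of WT sham 1 and 2 and 336, 321 and 364 in the other WT sham libraries, against 275, 270, 333, 219 and 256 in WT den. In Opg-/- sham it was 656, 603, 466, 609 and 661, and in Opg-/- den 414, 239, 239, 272 and 333. The 2 limbs did not overlap in Opg-/-, while in WT the den library at 333 was above the sham library at 321. The fall was 2-fold on the means in Opg-/- (599 ± 79.1 to 299 ± 74.7, SD, n = 5 each), with a log2 difference of -1.02 (SE 0.147, adjusted p = 3.28e-06, limma). In WT it was 1.38-fold (374 ± 69.5, n = 4, to 271 ± 41.3, n = 5), with a log2 difference of -0.46 (SE 0.156, adjusted p = 0.0163). The WT call rested on the near-identical libraries WT sham 1 and 2, the highest of their group: without both, the difference was -0.34 (adjusted p = 0.0751). It was also lost with libraries scaled to equal totals (-0.16, adjusted p = 0.383).

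Fgfbp1, the gene of the secreted FGF carrier, fell in both genotypes. WT sham libraries were at 184 (the mean of 1 and 2), 96.5, 107 and 160, and WT den libraries at 12, 31.2, 4.01, 11.2 and 7.17. Opg-/- sham libraries were at 269, 153, 153, 214 and 170, and Opg-/- den libraries at 18.9, 8.62, 6.48, 16.1 and 6.13. The lowest sham library was above 90 and the highest den library was 31.2. WT sham was 10.4-fold above WT den on the means (137 ± 42.0, SD, n = 4, against 13.1 ± 10.6, n = 5), with a log2 difference of -3.52 (SE 0.411, adjusted p = 2.50e-07, limma). Opg-/- sham was 17-fold above Opg-/- den (192 ± 49.8 against 11.2 ± 5.88, SD, n = 5 each), with a log2 difference of -4.07 (SE 0.388, adjusted p = 9.99e-09). In WT 115 genes and in Opg-/- 66 genes fell at least as far, Fgfbp1 included.

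These changes reordered the set when levels were set against the length of each gene's exons. That length counts all annotated exons of a gene, from 1.71 kb for Ntf3 to 8.66 kb for Ncam1. It is not the length of the transcripts expressed, so the order between genes depends partly on the annotation. In WT sham, Cntfr was highest at 134 ± 25.0 per kb of exon (SD, n = 4), followed by Fgfbp1 at 60.6 ± 18.6, Ntf5 at 26.1 ± 2.06, Ntf3 at 24.3 ± 6.39 and Ncam1 at 14.9 ± 1.91, with Gdnf at 2.87 ± 1.12 and Bdnf at 1.54 ± 0.789. The ranges of Ntf5, Ntf3 and Ncam1 overlapped in turn, as did those of Gdnf and Bdnf, and the other neighbours did not overlap. The order in Opg-/- sham was the same, with Cntfr at 215 ± 28.4 and Fgfbp1 at 84.7 ± 22 per kb. In WT den, Ncam1 came first at 131 ± 16.5 per kb and its range overlapped that of Cntfr at 97.3 ± 14.8. Gdnf followed at 15.2 ± 3.12, then Ntf3 at 13.2 ± 6.07 and Fgfbp1 at 5.80 ± 4.69, and Bdnf at 1.94 ± 1.20 and Ntf5 at 1.25 ± 0.871 came last, and from Gdnf down each gene overlapped the next. In Opg-/- den the first 5 genes had the same order, with Ncam1 at 131 ± 16.3 and Gdnf at 21.7 ± 10.8 per kb. Ntf3 (15.9 ± 3.15) and Fgfbp1 (4.97 ± 2.60) did not overlap there, and Ntf5 (1.99 ± 1.34) and Bdnf (1.77 ± 0.300) overlapped at the end.

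**Figure D2:**
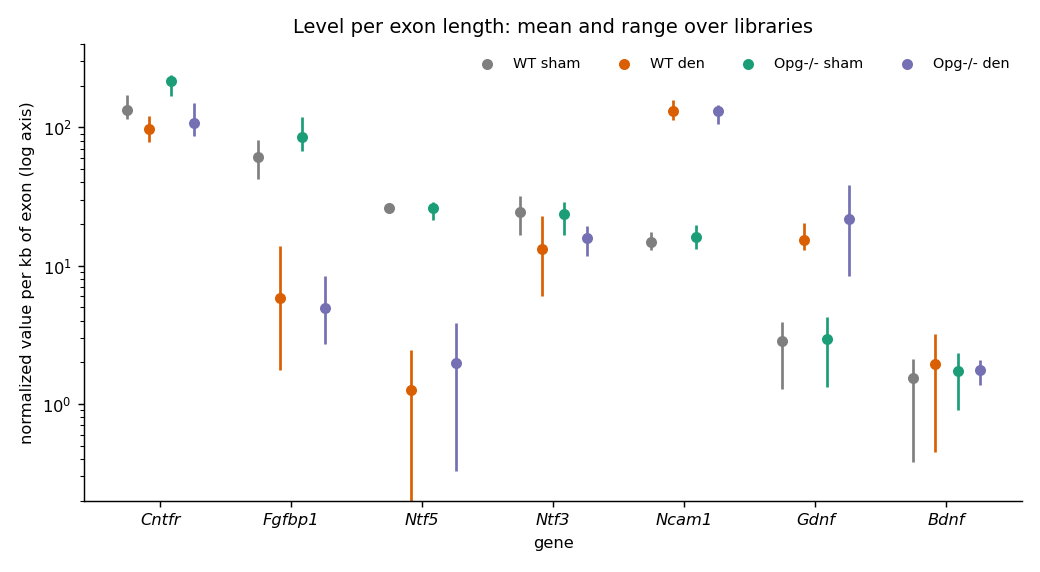
Normalized value per kb of exon (vertical log axis) for each gene in the 4 groups, with points for the mean and lines for the range over libraries (n = 4 in WT sham and 5 in the others). The line of Ntf5 in WT den runs off the axis because 1 library was at 0. Cntfr and Fgfbp1 led in sham, and Ncam1 and Cntfr led in den.

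The second question was whether the genotypes differed in these factors. In den, 0 of 7 members were called between Opg-/- and WT by limma, where 0.0613% of all genes were called. An unadjusted p under 0.05 was found for 0 of 7 members and for 1237 of all 17948 genes. The widest difference was that of Ntf5, 0.56 (95% interval -0.31 to 1.44, adjusted p = 0.87), and the narrowest interval that of Ncam1, 0.00 (-0.22 to 0.22). For Ncam1 the interval leaves room for a difference of less than 0.25 log2 units either way, whereas for Gdnf it ran from -0.32 to 1.06. In sham, 0 of 7 members were called, where 0.106% of all genes were. An unadjusted p under 0.05 was found for 2146 of all 17948 genes and for 1 of 7 members. That gene was Cntfr, 1.60-fold higher on the means in the libraries labelled Opg-/-, with a log2 difference of 0.68 (SE 0.156, 95% interval 0.36 to 1.01, adjusted p = 0.0912, limma). The 2 sham groups met at their edges, with the lowest Opg-/- library at 466 and the mean of WT sham 1 and 2 at 475, and the other 4 Opg-/- libraries (603 to 661) were above all WT sham values. Without WT sham 1 and 2 the difference was 0.80 and was called (adjusted p = 0.0253), and it was also called in a fit of these 2 groups alone (adjusted p = 0.0356) and when Opg-/- den 1 was left out of the joint fit (adjusted p = 0.0223). These were the only 3 of 32 alternatives that changed the call. Over the alternatives the difference was 0.55 to 0.80 and the adjusted p went up to 0.302 (limma). Leaving out WT sham 1 and 2 was chosen after seeing the data.

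The response to denervation was then compared between genotypes. For 0 of 7 members was this interaction called by limma, where 0.00557% of all genes were. An unadjusted p under 0.05 was found for 1249 of all 17948 genes and for 1 of 7 members. Cntfr was again that gene, with an interaction of -0.56 (95% interval -1.0 to -0.11, adjusted p = 0.69). In sham its means were 374 ± 69.5 in WT (SD, n = 4) and 599 ± 79 in Opg-/- (n = 5), a difference that was not called. In den they were 271 ± 41.3 in WT and 299 ± 74.7 in Opg-/- (SD, n = 5 each). The libraries of the genotypes overlapped in both limbs. The intervals of the interaction were wide for the low genes, from -0.71 to 1.83 for Ntf5, from -1.73 to 0.63 for Fgfbp1 and from -0.67 to 1.34 for Gdnf, and narrow for Ncam1, from -0.43 to 0.21.

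**Figure D3:**
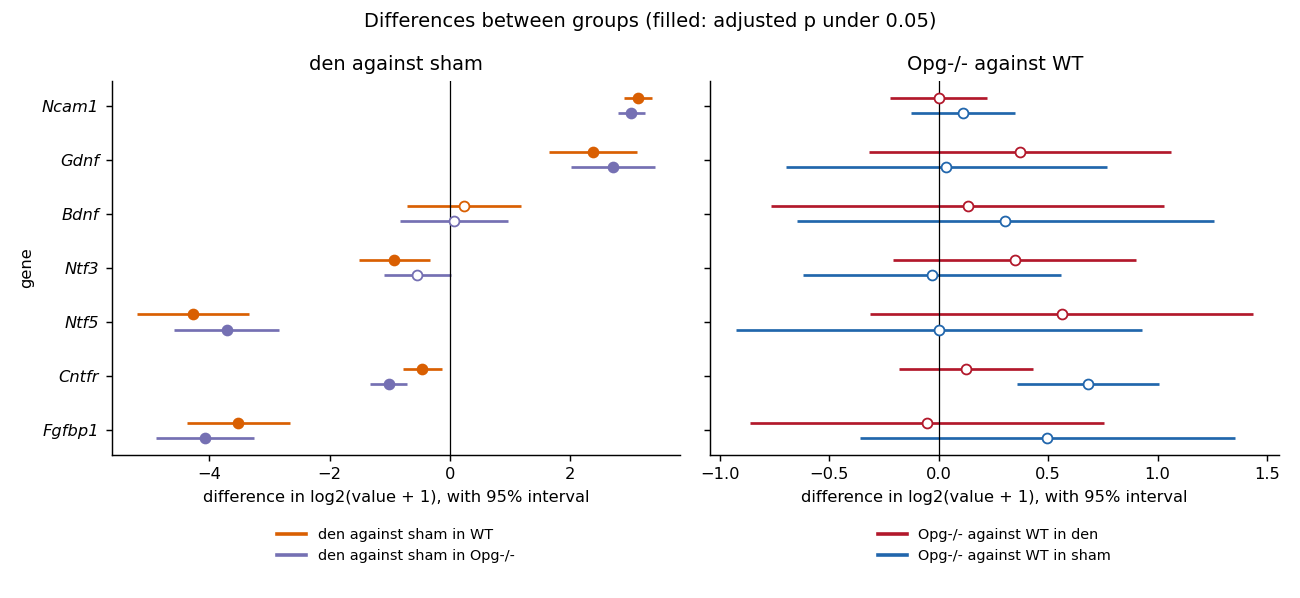
Difference in log2(value + 1) for each gene, with its 95% interval, between den and sham (left) and between Opg-/- and WT (right), filled where the adjusted p was under 0.05. In the left panel both genotypes moved in the same direction for every gene that was called in both, from -4.27 for Ntf5 to 3.12 for Ncam1 in WT. In the right panel no difference was called, and the interval of Cntfr in sham was the only one that did not include 0.

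Partners of these factors were read from 6 lists of 64 genes, of which 60 were tested. In WT, 11 of 60 (18.3%) were higher in den and 22 of 60 (36.7%) lower, with a median of -0.37, and in Opg-/- 12 of 60 (20%) were higher and 18 of 60 (30%) lower, with a median of -0.23. Among all genes, 26.9% were higher and 25.7% lower in WT and 28.6% and 26.4% in Opg-/-. With libraries scaled to equal totals the counts were 15 higher and 13 lower in WT and 23 higher and 13 lower in Opg-/-. Under that scaling 39.2% of all genes were higher and 15.2% lower in WT, and 47.5% and 12.8% in Opg-/-. The medians of the lists were then -0.07 in WT and 0.20 in Opg-/-, beside 0.26 and 0.42 over all genes. Between the genotypes, 0 of 60 were called by limma in either limb, where 0.0613% (den) and 0.106% (sham) of all genes were. For the interaction, 0 of 60 were called, where 0.00557% of all genes were.

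In the GDNF family, 1 of 7 tested genes rose and 3 fell in WT, and 1 rose and 2 fell in Opg-/- (medians -0.31 and -0.14). Artn, the gene of artemin, another ligand of the family, rose like Gdnf, by 2.22 (SE 0.43, adjusted p = 6.72e-05, limma) in WT and 2.68 (SE 0.405) in Opg-/-. Nrtn, the gene of neurturin, fell by 1.31 in WT and 1.38 in Opg-/-, from 103 ± 10.1 to 41.3 ± 8.56 and from 119 ± 6.70 to 46.9 ± 15 (SD). Ret, the signalling receptor of the family, fell by 2.03 and 1.28. Gfra1, the co-receptor that binds GDNF, fell by 1.20 in WT (adjusted p = 0.0246) and was at -0.13 in Opg-/- (adjusted p = 0.81), and the WT call was lost in a fit of the WT groups alone (adjusted p = 0.0558), with equal totals (0.0972), and without WT sham 4 (0.0835), WT den 4 (0.06) or WT den 5 (0.0527). The ligands of the family thus moved in both directions.

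Among receptors and processing enzymes of the neurotrophins, 2 of 11 tested genes rose and 5 fell in WT, and 2 rose and 3 fell in Opg-/- (medians -0.59 and -0.18). Ngfr, the p75 neurotrophin receptor, rose by 2.89 in WT (SE 0.828, adjusted p = 0.00767, limma) and by 4.42 in Opg-/- (SE 0.781, adjusted p = 0.000143). In WT its groups overlapped through sham library 4, at 197 beside 5.51 to 18.8 in the other WT sham libraries, which also had the highest sum of Schwann cell markers of all libraries, 5943. Sorcs1 and Sorl1, sorting receptors of the sortilin family, fell by 2.36 and 0.84 in WT and by 2.18 and 0.77 in Opg-/-. Furin, a protease that cuts proneurotrophins, rose by 0.60 and 0.46. Ngfr was also not called in WT by limma voom on the reads (2.94, adjusted p = 0.0734).

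In the CNTF receptor complex, 1 of 6 genes rose and 2 fell in WT, and 2 rose and 2 fell in Opg-/- (medians 0.08 and 0.28). The signalling subunits that join Cntfr moved apart. Lifr fell by 1.05 (SE 0.0782, adjusted p = 2.38e-12, limma) in WT and 0.84 in Opg-/-, while Il6st, which encodes gp130, rose by 0.48 (SE 0.0652, adjusted p = 2.91e-07) and 0.52. Cntf, the ligand, fell by 1.45 and 1.93. Its limbs overlapped in WT (49.7 ± 24.8 in sham, 15.2 ± 1.43 in den, SD) and did not in Opg-/-. Lif, the gene of leukemia inhibitory factor, a ligand of LIFR, was at 0.16 in WT (adjusted p = 0.85, limma) and rose by 1.66 in Opg-/- (SE 0.556, adjusted p = 0.0128). The Opg-/- groups overlapped, and the call was lost without Opg-/- sham 3 (1.20, adjusted p = 0.0591) or Opg-/- den 4 (1.31, adjusted p = 0.052). The difference between the genotypes in this response was not called (95% interval -0.16 to 3.17, adjusted p = 0.71).

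Of the FGFs, their receptors and Fgfbp3, 1 of 11 rose and 5 fell in WT, and 0 rose and 4 fell in Opg-/- (medians -0.61 and -0.73). Fgf1 and Fgf2, which lack a classical secretion signal and bind the matrix, fell by 1.24 and 1.26 in WT and by 1.20 and 1.56 in Opg-/-. Fgfr1, a main receptor for both, fell by 0.74 and 0.73, with SE of 0.0794 and 0.0748. Fgf7 rose by 0.76 in WT (adjusted p = 0.00178, limma) and was at 0.31 in Opg-/- (adjusted p = 0.16). The latter was called with equal totals (0.76, adjusted p = 0.00146) and without Opg-/- den 1 (0.47, adjusted p = 0.0296).

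Of the genes for NCAM polysialylation and neural adhesion, 4 of 10 tested rose and 3 fell in WT, and 5 rose and 3 fell in Opg-/- (medians 0.14 and 0.02). Nrcam, an adhesion molecule of the same superfamily as NCAM, rose even further than Ncam1, by 3.94 (SE 0.345, adjusted p = 7.28e-10, limma) in WT, from 10.1 ± 6.26 to 167 ± 76.6 (SD), and by 4.01 in Opg-/-. St8sia2, which builds polysialic acid on NCAM, rose by 1.60 in WT (adjusted p = 0.00846, and 0.0515 with a pseudocount of 0.1) and by 2.69 in Opg-/-, from levels of a few reads. Cdh15, M-cadherin of muscle cells, rose by 0.96 and 0.41, and Nfasc, neurofascin of axons and glia, fell by 1.40 and 1.64.

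Of 15 other secreted factors that act on nerve, 2 rose and 4 fell in each genotype (medians -0.20 and -0.18). Cxcl12, a chemokine that guides axons, fell by 1.16 and 1.05, Vegfb by 0.74 and 0.75, and Manf, a neurotrophic protein of the endoplasmic reticulum, rose by 0.69 and 0.65. Nenf, neudesin, was at -0.10 in WT (adjusted p = 0.31, limma) and fell by 0.27 in Opg-/- (adjusted p = 0.00349), and with equal totals its sign turned in both genotypes, to 0.20 and 0.18.

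**Figure D4:**
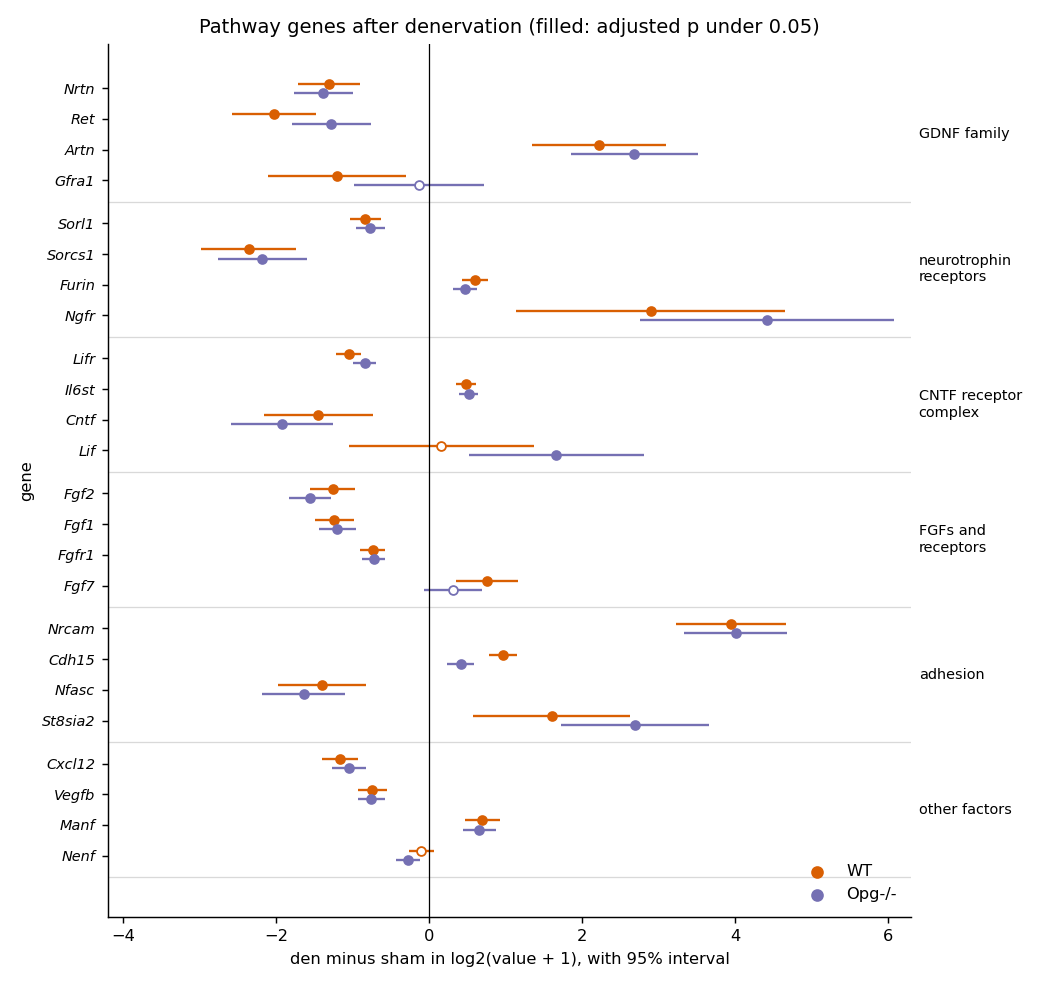
Den minus sham in log2(value + 1), with 95% intervals, for the 24 named genes of the 6 lists in WT and Opg-/- mice, filled where the adjusted p was under 0.05. Nrcam, Ngfr, Artn and St8sia2 lie to the right of 0 and Ret, Sorcs1, Cntf, Nfasc, Nrtn and Fgf2 to the left in both genotypes.

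Markers of other cells in the muscle also differed between the limbs for some cell types. Among all genes, 26.9% were called higher and 25.7% lower in den in WT, and 28.6% and 26.4% in Opg-/-. Schwann cells, the glia of the nerve, also make several of these factors. Of their 13 markers, 0 were higher and 6 lower in den in WT and 1 higher and 6 lower in Opg-/-, and their sum went from 1303 to 5943 over the WT sham libraries and from 725 to 1059 over WT den, and from 3297 to 4522 and 637 to 1852 over the sham and den libraries of Opg-/-. None of the 13 was at 0 in every library of a group. The lowest sham sum, 1303, was that of the mean of WT sham 1 and 2. Of 10 satellite cell and myoblast markers, 4 were higher in each genotype, and 2 were lower in WT and 4 in Opg-/- (medians 0.01 and 0.21). Their sum was 1851 to 2157 for WT sham and 5010 to 8381 for WT den, with 1893 to 2211 and 4149 to 6519 for the same limbs of Opg-/-. Myog, which counts in that sum, was by itself 119 to 186 in WT sham and 1997 to 4095 in WT den. In Opg-/- it was 94.3 to 184 in sham and 1542 to 2272 in den. Macrophage markers, 10 in all, were higher for 5 genes in WT and 10 in Opg-/-, with sums of 2251 to 3425, 2906 to 6511, 1286 to 2400 and 2820 to 6774 in the same order of groups. Of 8 neuronal markers 4 were tested, Chat was at 0 in every library, and the sum was 31.5 to 55.3 in sham and 9.33 to 29.5 in den. Endothelial markers were lower for 9 of 9 genes in each genotype (medians -0.99 and -1.08), and their sum was 7914 to 10087 in the sham libraries and 3609 to 5122 in den. Markers of smooth muscle and pericytes were lower for 6 of 6 genes in each genotype (medians -1.24 and -1.47), with sums of 8207 to 10283 in sham and 2864 to 4094 in den. The skeletal muscle fibre markers summed to 2745548 to 4172568 in sham and 968631 to 1396473 in den. Of 10 fibroblast markers 1 was higher and 5 lower in WT and 2 higher and 3 lower in Opg-/-, and of 6 tested T and NK cell markers 1 was lower in each genotype. The part of these cells, and of the fall of the fibre markers, in the changes of Ncam1, Gdnf, Ntf5, Cntfr and Fgfbp1 was not tested.

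The genes most like each member were sought among all genes tested, as the smallest root mean square difference of log2(value + 1), each gene centred on its mean, over 19 libraries. For Ncam1 these were Rhoc (0.165), Mknk2 (0.234) and Ankrd10 (0.236), beside a spread of Ncam1 itself of 1.54 on the same measure. Rhoc averaged 323 and 302 in the sham groups of WT and Opg-/- and 2541 and 2396 in den. For Gdnf they were Lgals3 (0.476), Serinc5 (0.484) and Itpkc (0.489), against its own spread of 1.38. For Fgfbp1 the first was Sema6c (0.585 against 2.01), which averaged 3522 and 3859 in sham and 271 and 275 in den, followed by Gm32352 (0.588) and 2310065F04Rik (0.595). For Ntf5 they were 2310015K22Rik (0.627 against 2.12), AC151602.1 (0.65) and Gm34256 (0.651). For Cntfr they were Cacna2d1 (0.24 against 0.511), Shmt1 (0.247) and Trdn (0.249), and for Ntf3 Amt (0.301 against 0.555), Inpp1 (0.322) and Gm4724 (0.322). The nearest genes to Bdnf, Klhl13 (0.516), Gm17435 (0.528) and 4930579G24Rik (0.534), were hardly closer than its own spread of 0.683. All 19 libraries share the contrast of den and sham, which the likeness mostly reflects for the genes that moved far.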

How the data were processed

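Libraries were made from total RNA of the GAS without keeping strand and sequenced on an Illumina NovaSeq. Per the labels and the study's methods, the authors mapped reads to mm10 with STAR and counted them with RSEM (versions not given in the sources used here). The deposited signal values are RSEM estimated counts that the authors had divided by a size factor for each library. Their median ratio to a geometric mean over libraries came to 1.00716 in all of them. Dividing by the worth of 1 read gave values within 0.01 of a whole read for 87.2% to 88.2% of genes above 0, so the values were not tested as counts, and reads recovered in this way were used only in 1 alternative, limma voom. Columns were matched to samples by genotype letter, limb letter (left sham, right den) and number. Whether the libraries of a group came from separate mice, and whether a number marks a mouse, is not stated, so p-values measure the spread between libraries. The labels give no batch or date.

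Genes that reached 1 in 4 or more libraries were fitted in 1 model of 4 groups on log2(value + 1) with limma 3.58.1 (trend and robust, R 4.3.3) and Benjamini-Hochberg adjustment, and called at an adjusted p under 0.05. The fit was tested on simulated data. The genes and lists were chosen with earlier results of these data known. Named were the 7 members, from each list the 4 genes with the smallest adjusted p among those called in den against sham (and any called between genotypes), and for each member the 3 most like genes. A gene of the CNTF list is not reported here and was left out of its counts. Tables and figures were made with Python 3.11.15, pandas 2.3.3 and scipy 1.17.1. Gene positions are from GENCODE M21, and promoters from RefSeq on GRCm38.p6. Alternatives were other filters, pseudocounts, scalings, sample sets, models and call rules, a replicate block and leaving out each library. Intervals and limits at 0 cover counting or replicate error only, since reads were not corrected for amplification.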

Additional observations from a re-analysis of the deposited data

Results flagged for a closer look

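In 124 groups of 4 or 5 libraries, 31 genes in 4 groups each, 1 library stood far from the rest of its group in 6, and chance flags about 1 in 20. None of these was a member of the set. Ngfr was 197 in WT sham 4, beside 5.51 to 18.8 in the other WT sham libraries. Sorcs1 was 134 in Opg-/- sham 3, beside 55.8 to 77.9, and Fgf1 was 615 in Opg-/- sham 5, beside 434 to 469.5. Lif was 11.2 in WT den 1, beside 4.78 to 6.41. Fgf7 was 33.1 in WT sham 5, beside 44.7 to 46.2, and Manf was 343 in WT den 4, beside 243 to 268.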

How the results depend on the processing

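The members' differences were recomputed in 1113 combinations of result and alternative, and the call changed in 8. Ncam1, Gdnf, Ntf5 and Fgfbp1 kept their calls and directions in den against sham in both genotypes under every alternative run. The range was 3.04 to 3.43 for Ncam1, 1.69 to 2.66 for Gdnf, -5.15 to -2.59 for Ntf5 and -3.89 to -2.73 for Fgfbp1 in WT, and 2.93 to 3.46, 2.01 to 3.13, -4.05 to -2.40 and -4.28 to -3.26 in Opg-/-. The number of members called in WT was 6, and 4 with equal totals or with the study's added rule of a log2 difference above 1, and 5 without WT sham 1 and 2. In Opg-/- it was 5 under every alternative. Between genotypes in sham it was 0, and 1 (Cntfr) in the fit of the compared groups alone and without WT sham 1 and 2, an alternative chosen after seeing the data. Leaving out each library gave 0 to 1 members in sham, 0 in den and 0 for the interaction. Scaling to equal totals also moved the median of all genes by -0.13 between genotypes in sham and by 0.14 for the interaction. Of all genes, 19 were called between genotypes in sham, and 35 with equal totals, 28 with a pseudocount of 0.1, 13 without trend and robust, 4 by limma voom, 56 with WT sham 1 and 2 kept as 2 libraries and 114 without both. In den 11 were called, and 7 without trend and robust, and for the interaction 1, and 0 to 3 under the alternatives. Leaving out each library gave 2 to 35 such genes in sham and 4 to 14 in den. The values in the text are relative to a median of all genes near 0. Of 1536 results for the 24 named pathway genes, the call changed in 30. With equal totals Nenf turned to 0.2029 in WT and 0.1787 in Opg-/-.

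Whether a replicate number marks a mouse is not stated, and the numbers were not used as pairs: deviations of same-numbered sham and den libraries correlated at -0.04 to 0.06 in WT and 0.01 to 0.05 in Opg-/-, and those of other numbers at -0.08 to 0.09 and -0.05 to 0.03. In Opg-/- 5 of 5 same-numbered pairs were above 0, and 4 of 5 sham libraries correlated best with their own number, a hint from the data and not from the design. A replicate block (correlation 0.0241) left 6, 5, 0, 0 and 0 members called in the 5 comparisons, and the difference of Cntfr in sham was 0.68 (adjusted p = 0.0875). Tests of counts by edgeR and DESeq2 were not run, because the values did not come out as whole reads. Low read numbers limit Bdnf, and in den Ntf5 and Fgfbp1.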
